A study of Mus musculus with 12 samples.

Results

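The chemokine receptors described here are 7 genes, Ccr1, Ccr2, Ccr7, Ccr9, Cxcr2, Cxcr4 and Cx3cr1, taken by symbol from tables of 24054 genes. The remaining 17 genes of the family in the tables, decoy and scavenging receptors included, were followed beside them. RNA was sequenced from mouse fetal liver stem cells and early progenitors at E13.5, in 12 libraries with 3 for each cell type and genotype. LT-HSC (long-term haematopoietic stem cells) were LSK cells with CD150 and without CD48, and MPP (multipotent progenitors) were LSK cells with CD48 and without CD150. The mutants of both cell types carried Setdb1 p/p;vav-cre. All controls carried Setdb1 +/p, without vav-cre in LT-HSC control 1 and MPP controls 1 and 2, and with it in LT-HSC controls 2 and 3 and MPP control 3. Every animal therefore had at least 1 p allele, which the labels do not define, and the Cre is a transgene active in blood cells. Setdb1 encodes an enzyme that methylates lysine 9 of histone H3. An LT-HSC library came from 500 to 1000 cells and an MPP library from 20000, so cell type and cell number cannot be told apart.

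Chemokine receptors are seven-pass membrane proteins coupled to inhibitory G proteins, and they steer cells along gradients of small secreted proteins, the chemokines. Cxcr4 binds Cxcl12 and holds stem cells in their niche. Ccr7, the receptor for Ccl19 and Ccl21, and Ccr9, the receptor for Ccl25, guide early lymphoid progenitors to the fetal thymus. Ccr2 binds Ccl2 and Ccl7 and brings monocytes into the blood, Ccr1 binds Ccl3 and related chemokines on myeloid cells, Cxcr2 draws neutrophils towards Cxcl1 and Cxcl2, and Cx3cr1 binds Cx3cl1 on monocytes and macrophages.

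Ccr9, Ccr1 and Ccr2 lie in 1 receptor cluster on chromosome 9, Cx3cr1 lies elsewhere on that chromosome, Cxcr2 and Cxcr4 lie on chromosome 1 and Ccr7 on chromosome 11, in the GRCm38.p6 annotation of RefSeq. RefSeq's promoter table, which covers 250 bases before to 50 bases after a start site, held 6 of the 7 genes. The 3 promoters below belong to the pair of receptors with the largest fold changes in MPP and to Cxcr4, the receptor with the most transcripts in 3 of the 4 groups. Capitals mark CG dinucleotides, the bases that DNA methylation uses.
Ccr2 promoter, chr9:124101933-124102232, plus strand: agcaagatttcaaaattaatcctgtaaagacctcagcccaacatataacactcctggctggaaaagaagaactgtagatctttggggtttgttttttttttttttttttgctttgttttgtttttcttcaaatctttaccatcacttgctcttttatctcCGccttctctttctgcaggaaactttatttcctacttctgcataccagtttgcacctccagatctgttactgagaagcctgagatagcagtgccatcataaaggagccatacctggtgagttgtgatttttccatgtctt
Ccr9 promoter, chr9:123766961-123767260, plus strand: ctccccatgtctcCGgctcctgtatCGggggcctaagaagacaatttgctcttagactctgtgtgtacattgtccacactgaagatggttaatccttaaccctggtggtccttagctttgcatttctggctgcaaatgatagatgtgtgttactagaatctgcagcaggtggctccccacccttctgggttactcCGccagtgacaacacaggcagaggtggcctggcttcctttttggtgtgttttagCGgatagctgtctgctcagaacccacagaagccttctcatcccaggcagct
Cxcr4 promoter, chr1:128592250-128592549, minus strand: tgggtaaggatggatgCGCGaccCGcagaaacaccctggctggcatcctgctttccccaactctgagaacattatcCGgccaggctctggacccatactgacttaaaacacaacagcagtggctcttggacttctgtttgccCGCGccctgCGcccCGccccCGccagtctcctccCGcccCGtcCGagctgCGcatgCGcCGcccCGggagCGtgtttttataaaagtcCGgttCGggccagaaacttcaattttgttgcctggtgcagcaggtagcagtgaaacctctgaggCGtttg
The Ccr2 window held 1 CG dinucleotide and 38% GC, the Ccr9 window 4 and 51.3%, and the Cxcr4 window 20 and 59.3%, beside medians of 7 and 52.7% over all 32851 promoter windows. The Ccr1, Cx3cr1 and Cxcr2 windows held 1, 5 and 2 CG dinucleotides. Both strands were searched for 4 motifs, whose matches did not overlap. The Runx-type motif TGTGGT, held by 16.8% of all promoter windows, was found once each in the Ccr1 and Cx3cr1 windows, on the strand opposite to the gene. The GATA-type motif AGATAA, held by 11.2%, was found once in the Ccr2 window, also on the opposite strand. The PU.1-type motif GAGGAAGT (3.2% of all windows) was in none of the 6, nor was the E-box CACGTG (7.15%).

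The deposited tables give expected counts, from which CPM (counts per 1000000, scaled by TMM over the 12 libraries) were computed. Totals per library lay between 10119416 and 14113198. Replicates of a group differed by at least 5.22 in chi-square per gene, so none matched within sampling noise. The labels do not say that libraries came from separate animals, so a p-value speaks only of the spread among these libraries, some of which may be technical. Slamf1 and Cd48 followed the labels, with Slamf1 (CD150) at 34.7 to 41.6 CPM in LT-HSC and 1.09 to 2.39 CPM in MPP, and Cd48 at 10.6 to 30.4 CPM in LT-HSC and 150 to 259 CPM in MPP. Of 5 gate genes (Ptprc, Kit, Ly6a, Slamf1 and Cd48), edgeR called 3 lower and 0 higher in MPP mutants, beside 18.5% and 16.5% of all tested genes. Ly6a stood at 13.7 to 16.9 CPM in MPP mutants and 26.3 to 35.2 CPM in MPP controls. In LT-HSC none of the 5 was called, and Ly6a was at 93.6 CPM in mutant 2 and 24.3 to 47.2 CPM elsewhere. Setdb1 itself was at 66.4 to 80.8 CPM in LT-HSC mutants and 73.4 to 108 CPM in LT-HSC controls, and at 87.0 to 117 CPM in MPP mutants and 87.9 to 140 CPM in MPP controls. The ranges overlapped, and a sum over the whole gene does not check the genotype labels. LT-HSC mutant 2 stood apart from the other LT-HSC mutants in macrophage markers, with a summed level of 910 CPM over 15 genes against 55.6 and 146 CPM in mutants 1 and 3. The LT-HSC controls held 732, 965 and 1106 CPM, so mutant 2 was like the controls, and mutants 1 and 3 lay below them. LT-HSC results that rest on mutant 2 are also given without it. Such a fit compares mutants with low sums to controls with high sums.

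In MPP, the mutants held less of all 7 receptors than the controls. The smallest share of the control mean was left for Ccr2 (2.6%) and Ccr9 (3.23%), followed by Cx3cr1 (13.4%), Ccr1 (26.2%), Ccr7 (42.5%), Cxcr4 (57.8%) and Cxcr2 (64.9%). All 7 passed edgeR's quasi-likelihood test as lower at an adjusted p of 0.05, a direction in which 18.5% of the 12392 tested genes were called. The libraries of mutants and controls did not overlap for any of the 7, which held in the lower direction for 24.4% of tested genes. The median log2 fold change was -1.95 over the 7 receptors and -0.01 over all tested genes. In bulk RNA, fewer cells of a type and less RNA per cell cannot be told apart.

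**Figure D1:**
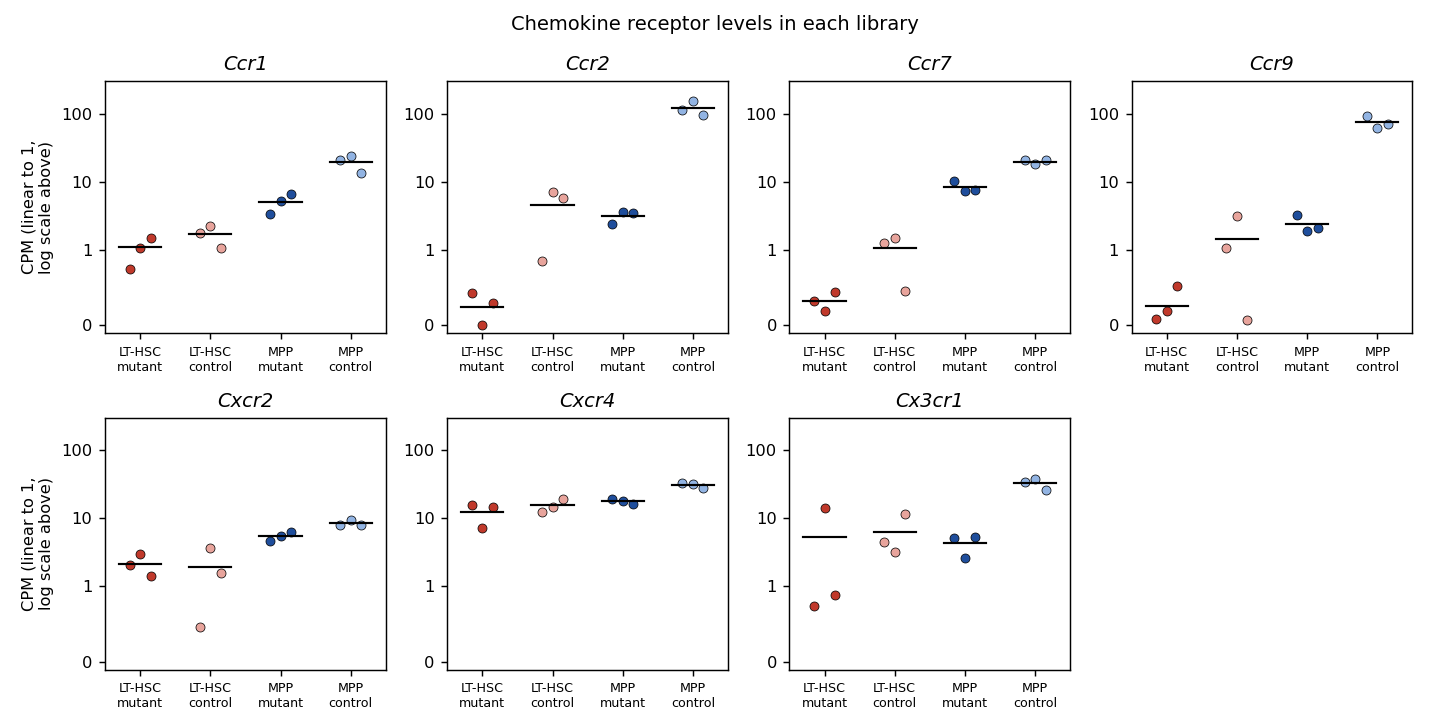
Level of each receptor in CPM (linear to 1, log scale above) in the 3 libraries of each group, with a bar at the group mean. The 3 MPP controls lie above all other libraries in every panel, and Ccr2 and Ccr9 show the widest gap to the MPP mutants. The share of all genes with that order was not computed.

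Ccr2, the monocyte receptor for Ccl2, stood at 2.36, 3.54 and 3.47 CPM in MPP mutants 1, 2 and 3, against 114, 152 and 94.1 CPM in MPP controls 1, 2 and 3. Every mutant was low and the groups were far apart. Mutant over control gave a log2 fold change of -5.28 (SE 0.219, edgeR adjusted p = 6.46e-08), the 19th most negative of 12392. Ccr9, the thymus-homing receptor for Ccl25, stood at 3.22, 1.91 and 2.12 CPM in the MPP mutants, against 90.7, 62.3 and 71.3 CPM in the controls. No mutant came near any control. Its log2 fold change was -4.98 (SE 0.216, edgeR adjusted p = 6.47e-08), the 21st most negative.

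Ccr2 had fractional counts in 7 libraries, so RSEM shared some of its reads with other places they fit, and its level is uncertain to that extent. The other 6 members had whole counts in all libraries. A lncRNA without a row in the tables overlaps Ccr9 (Gm17021) and another overlaps Cx3cr1 (Gm33858), and the unstranded reads of each pair cannot be told apart.

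Cx3cr1, the fractalkine receptor of monocytes and macrophages, stood at 5.15, 2.63 and 5.34 CPM in the MPP mutants, against 33.7, 38.2 and 26.4 CPM in the controls. The groups did not overlap, and mutant 2 was the lowest. The log2 fold change was -2.92 (SE 0.241, edgeR adjusted p = 1.00e-05). Ccr1, which responds to Ccl3, stood at 3.41, 5.26 and 6.52 CPM in the mutants, against 20.5, 24.0 and 13.47 CPM in the controls, again without overlap. Its log2 fold change was -1.95 (SE 0.261, edgeR adjusted p = 0.000231).

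Ccr7, the other thymus-directed receptor, fell less than Ccr9. It stood at 10.3, 7.26 and 7.54 CPM in the mutants, against 20.5, 17.9 and 20.6 CPM in the controls, with a log2 fold change of -1.26 (SE 0.170, edgeR adjusted p = 0.000247). The 95% intervals of the fold changes of Ccr9 (-5.45 to -4.50) and Ccr7 (-1.63 to -0.89) did not overlap, but the difference between the genes was not tested. Cxcr4, the niche receptor for Cxcl12, stood at 19.4, 17.7 and 16.3 CPM in the mutants, against 32.9, 31.8 and 27.5 CPM in the controls. Both groups were tight, and the log2 fold change was -0.82 (SE 0.134, edgeR adjusted p = 0.000852). Cxcr2, the neutrophil receptor, had the smallest change, with 4.69, 5.44 and 6.27 CPM in the mutants, against 7.87, 9.47 and 7.94 CPM in the controls. Its log2 fold change was -0.65 (SE 0.190, edgeR adjusted p = 0.0214). That call was lost when MPP mutant 1, MPP mutant 2 or MPP control 2 was left out (adjusted p = 0.0555, 0.068 and 0.0906), with DESeq2 (adjusted p = 0.0571), and in a fit of all 12 libraries that shares 1 estimate of spread (SE 0.480, adjusted p = 0.385).

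Most MPP controls lack vav-cre, so genotype and transgene were not separated there. MPP control 3, the Cre carrier among them, lay above every MPP mutant for all 7 receptors. With Cre-positive controls alone, a fit of both cell types leaves 1 MPP control, assumed to vary like the other groups. The log2 fold changes in MPP were then -4.96 for Ccr2, -4.94 for Ccr9, -2.65 for Cx3cr1 and -1.47 for Ccr1. They were -1.36 for Ccr7, -0.69 for Cxcr4 and -0.60 for Cxcr2. With 1 MPP control, whether the calls hold without the Cre-negative controls cannot be told.

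In LT-HSC, none of the 5 receptors tested passed edgeR's test, among 0.420% of 12847 genes called in either direction. Ccr7 and Ccr9 had too few counts to be tested. At an unadjusted p under 0.05 there was 1 member, Ccr2, where 9.50% of all genes were, and DESeq2 called that 1 member. Ccr2 stood at 0.424, 0 and 0.295 CPM in LT-HSC mutants 1, 2 and 3, against 0.858, 6.96 and 5.76 CPM in LT-HSC controls 1, 2 and 3. All mutants lay below all controls, although control 1 was near the mutants. A count of 0 in mutant 2 allows up to 0.288 CPM, from 3 counts, which like other limits here covers counting error only. The log2 fold change was -4.13 (SE 1.01, 95% interval -6.46 to -1.79), with an unadjusted p of 0.00372 and an adjusted p of 0.217 in edgeR. In the fit of all 12 libraries the adjusted p was 0.0234, and without LT-HSC mutant 2 the log2 fold change was -3.65 (adjusted p = 0.228). Of the 5 tested receptors 1 had mutants wholly below controls, beside 9.59% of all tested genes.

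Cxcr4, at 15.7, 7.19 and 14.8 CPM in LT-HSC mutants, against 12.5, 14.7 and 19.3 CPM in LT-HSC controls, had overlapping groups and a log2 fold change of -0.27 (SE 0.316, edgeR adjusted p = 0.838). Mutant 2 was its lowest library, and without it the value was -0.02 (adjusted p = 0.987). Ccr1 was low throughout, at 0.741, 1.05 and 1.47 CPM in the mutants and 1.78, 2.21 and 1.05 CPM in the controls, with a log2 fold change of -0.58 (SE 0.501, adjusted p = 0.775). Cxcr2 ranged from 1.40 to 2.97 CPM in the mutants and from 0.462 to 3.68 CPM in the controls, and its log2 fold change of 0.21 (SE 0.710, adjusted p = 0.953) had no stable sign when libraries were left out, with -0.14 without mutant 2 (adjusted p = 0.974).

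Cx3cr1 in LT-HSC mutants stood at 0.741, 14.4 and 0.885 CPM, against 4.42, 3.24 and 11.5 CPM in LT-HSC controls. Mutant 2 held the highest value of the 6 libraries and mutants 1 and 3 the lowest. The log2 fold change was -0.20 (SE 1.08, edgeR adjusted p = 0.971), and without mutant 2 it was -2.95 (adjusted p = 0.155). That library also held 169 CPM of Csf1r, a macrophage receptor gene, where mutants 1 and 3 held 7.58 and 14.7 CPM. The LT-HSC controls held 83.8, 122 and 148 CPM of Csf1r. The part of mutant 2 in the result was not tested. Ccr7 stood at 0.329, 0.192 and 0.442 CPM in the mutants and 1.25, 1.47 and 0.452 CPM in the controls, and Ccr9 at 0.0824, 0.192 and 0.516 CPM in the mutants and 1.06, 3.17 and 0.0754 CPM in the controls. LT-HSC mutant 3 and LT-HSC control 3 held 6 counts of Ccr7 each, so only scaling kept the Ccr7 groups from overlapping. LT-HSC control 3 and LT-HSC mutant 1 held 1 count of Ccr9 each, the lowest of the 12 libraries and too few to rank. Fitted without the filter on low counts, their log2 fold changes were -1.66 (SE 0.781) and -2.35 (SE 1.13), with adjusted p = 0.607 and 0.616 in edgeR.

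**Figure D2:**
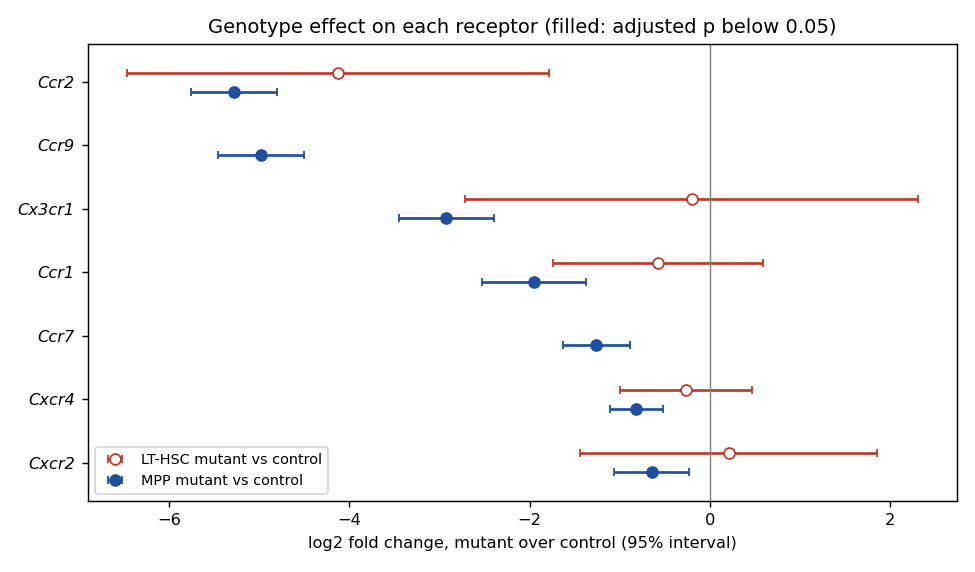
Log2 fold change of mutant over control for each receptor in MPP and LT-HSC, with 95% intervals; filled points passed the adjusted p threshold. All 7 points are filled and below 0 in MPP, no point is filled in LT-HSC, and the LT-HSC intervals are wider.

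Whether the genotype effect differed between cell types was tested as an interaction over 12 libraries. It was called for 0 of 7 receptors and for 0.377% of 13249 genes by edgeR, and DESeq2 called no receptor. At an unadjusted p under 0.05 there was 1 member, Ccr1, where 12.4% of genes were. Its effect in LT-HSC was 1.31 higher than in MPP on the log2 scale (SE 0.519, edgeR adjusted p = 0.323). The effects of Ccr9 and Cx3cr1 were each 2.61 higher in LT-HSC than in MPP (SE 1.28 and 1.21, adjusted p = 0.443 and 0.405), and for Ccr2 the difference was 1.13 (SE 1.28, 95% interval -1.66 to 3.92, adjusted p = 0.814). The Cx3cr1 difference was -0.05 without LT-HSC mutant 2. The remaining estimates were 0.78 for Cxcr2, 0.49 for Cxcr4 and -0.43 for Ccr7. Calls in MPP and none in LT-HSC therefore do not show that the effects differ.

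In the controls, LT-HSC held less of every one of the 7 receptors than MPP. All 7 were called lower by edgeR, a direction in which 18.0% of 12834 genes were called, and all 7 had libraries that did not overlap, beside 24.6% of genes. This comparison shares its MPP controls with the MPP genotype comparison. Ccr9 was at 1.43 ± 1.58 CPM in LT-HSC controls and 74.8 ± 14.5 CPM in MPP controls (SD, n = 3 each), a log2 fold change of -5.69 (SE 0.527, edgeR adjusted p = 3.77e-05). Ccr2 followed with a log2 fold change of -4.74 (adjusted p = 5.26e-05), Ccr7 with -4.19 (adjusted p = 1.35e-05) and Ccr1 with -3.50 (adjusted p = 3.09e-05). Cx3cr1 (-2.36, adjusted p = 0.00110, and 0.0524 in the fit of 12 libraries), Cxcr2 (-2.14, adjusted p = 0.00873) and Cxcr4 (-0.98, adjusted p = 0.00188) differed less. With Cre-positive controls alone, in a fit that leaves 1 MPP control, the log2 fold changes were -5.51 for Ccr9, -4.465 for Ccr7, -3.95 for Ccr2 and -3.10 for Ccr1. They were -1.905 for Cx3cr1, -1.65 for Cxcr2 and -0.76 for Cxcr4. With 1 MPP control, whether the calls hold without the Cre-negative controls cannot be told.

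Ordered by mean CPM, MPP controls were highest for all 7 genes, and their libraries lay apart from the next group. Of all tested genes, 24.4% had MPP mutants wholly below MPP controls and 24.6% had LT-HSC controls wholly below them. The share of all genes with MPP controls above all other groups was not computed, nor were shares for the lower steps. For Ccr1, Ccr7, Ccr9 and Cxcr4 the next group was the MPP mutants, then LT-HSC controls, then LT-HSC mutants. Neighbours overlapped at both lower steps for Ccr9 and Cxcr4, at the lowest step for Ccr1 and at none for Ccr7. At the lowest Ccr7 step the nearest libraries held 6 counts each and were parted only by scaling. For Ccr2 the LT-HSC controls came second and overlapped the MPP mutants, and for Cx3cr1 the 3 lower groups overlapped in sequence with the MPP mutants at the bottom. Cxcr2 had both LT-HSC groups overlapping at the bottom.

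Levels between genes were compared with the deposited TPM, which allow for transcript length. In MPP controls, Ccr2 was the most abundant of the 7 at 56.3 ± 14.2 TPM, ahead of Cxcr4 at 29.9 ± 2.77, Ccr9 at 28.7 ± 5.27, Ccr7 at 17.4 ± 1.19, Cx3cr1 at 14.7 ± 2.75, Ccr1 at 11.6 ± 3.29 and Cxcr2 at 4.70 ± 0.550 TPM (SD, n = 3). In MPP mutants, Cxcr4 led at 15.8 ± 1.90 TPM, then Ccr7 at 6.80 ± 1.63 TPM, and Ccr2 and Ccr9 were the lowest at 1.33 ± 0.242 and 0.857 ± 0.284 TPM (SD, n = 3). The summed level of the 7 receptors was 32.2 ± 2.99 TPM in MPP mutants and 163 ± 20.5 TPM in MPP controls, and 18.4 ± 1.52 TPM in LT-HSC mutants and 26.3 ± 5.74 TPM in LT-HSC controls (SD, n = 3 each). Cxcr4 made up 49.2% of that sum in MPP mutants (SD 3.23) and 18.4% in MPP controls (SD 0.925). In LT-HSC it made up 71.2% in mutants (SD 23.8) and 64.3% in controls (SD 6.41). The wide spread in LT-HSC mutants came with mutant 2, at 7.32 TPM of Cxcr4 and 6.74 TPM of Cx3cr1. Mutants 1 and 3 held 16.99 and 15.61 TPM of Cxcr4, and 0.37 and 0.43 TPM of Cx3cr1. The mean share without mutant 2 was not computed. Ccr2 made up 4.2% in MPP mutants and 34.2% in MPP controls.

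**Figure D3:**
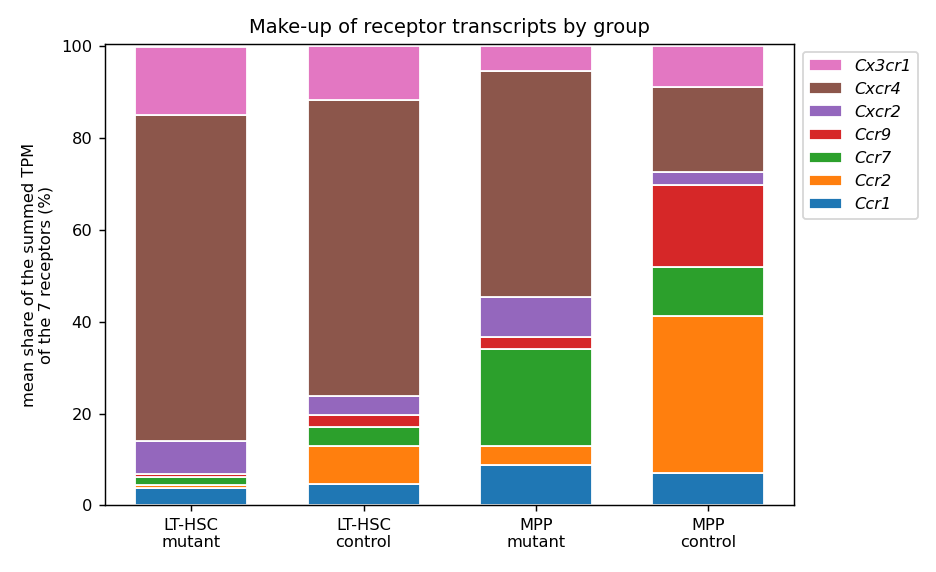
Mean share of each receptor in the summed TPM of the 7, in percent, for the 4 groups. Ccr2 and Ccr9 take large shares in MPP controls, and Cxcr4 is the largest mean share in the other groups. The Cxcr4 share in LT-HSC mutants (71.2%) had an SD of 23.8 over the 3 libraries.

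Other receptors of the family were set beside the members. In MPP, Cxcr3, known from T cells, fell (13.3 ± 0.439 CPM in mutants and 21.1 ± 2.74 CPM in controls, log2 fold change -0.69, edgeR adjusted p = 0.00355). Ackr1, a chemokine-scavenging receptor of red cells and vessels, rose (12.8 ± 2.72 CPM in mutants and 1.30 ± 0.288 CPM in controls, 3.27, adjusted p = 6.30e-06), as did Ccrl2, an atypical receptor (9.99 ± 1.11 CPM in mutants and 6.35 ± 0.398 CPM in controls, 0.63, adjusted p = 0.0154; all SD, n = 3 each). The Ccrl2 call was lost without MPP mutant 2, MPP mutant 3 or MPP control 2 (adjusted p = 0.067, 0.0551 and 0.055). None of these 3 was called by edgeR or DESeq2 in LT-HSC, where Cxcr3 had an unadjusted p under 0.05. In the control comparison Cxcr3 was lower and Ackr1 and Ccrl2 were higher in LT-HSC than in MPP, although Ackr1 lost its call without any 1 of 5 of the 6 control libraries (adjusted p between 0.0551 and 0.0875). In the interaction Ackr1 had an effect of -2.65 in log2 (LT-HSC minus MPP, edgeR adjusted p = 0.0758) and was called by DESeq2, while Ccrl2 had -0.49 (adjusted p = 0.376) and Cxcr3 -0.10 (adjusted p = 0.946), called by neither. A further 13 receptor genes had at most 11 counts in any library.

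Ccr9, Ccr1 and Ccr2 start within 335 kb of one another. In MPP they fell, with log2 fold changes between -5.28 and -1.95. The non-receptor genes in and beside the cluster moved less in MPP, with log2 fold changes of -0.55 for Fyco1 (adjusted p = 0.00587), -0.68 for Lztfl1 (adjusted p = 0.00175), 0.37 for Gm10052 (adjusted p = 0.0336), 0.21 for Sacm1l (adjusted p = 0.105) and -0.08 for 2010315B03Rik (adjusted p = 0.754). Over all members, 44 genes outside the receptor list start within 250 kb of a member, and in MPP 9 of the 26 tested were lower and 2 higher, beside 18.5% and 16.5% of all genes, with a median log2 fold change of -0.11. The 4 with the smallest p were Slc11a1 near Cxcr2 (-2.18, adjusted p = 3.2e-05), Slc25a38 near Cx3cr1 (1.18, adjusted p = 5.9e-05), Tns4 near Ccr7 (-3.51, adjusted p = 0.000227) and Lztfl1. Slc11a1 and Tns4 were not called in the fit of 12 libraries (adjusted p = 0.118 and 0.0712). In LT-HSC none of the 25 tested neighbours was called by edgeR or DESeq2, with 3 at an unadjusted p under 0.05, beside 9.50% of all genes.

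**Figure D4:**
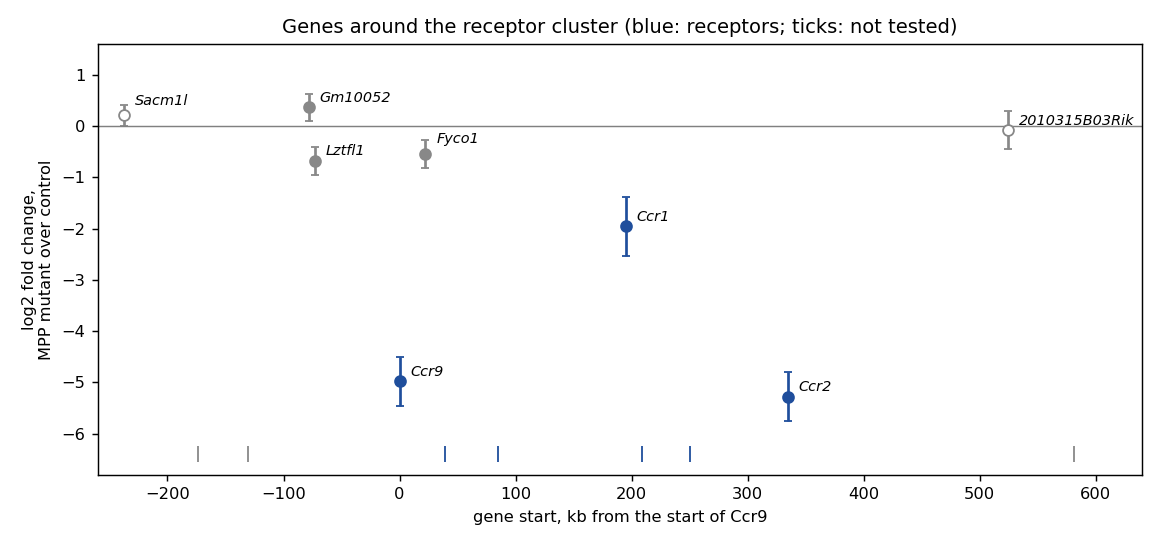
Log2 fold change of MPP mutant over control, with 95% intervals, against gene start in kb from the start of Ccr9. Receptors are blue, other genes grey, filled points passed the threshold and ticks mark genes not tested. Ccr9, Ccr1 and Ccr2 lie between -5.28 and -1.95, and the other genes lie between -0.68 and 0.37.

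The ligands and the signalling genes downstream of the receptors moved in part with them in MPP. Of 38 ligand genes, 12 were tested in MPP, where 7 were lower and 1 was higher, beside 18.5% and 16.5% of all tested genes. In LT-HSC edgeR called none of 13, with 6 at an unadjusted p under 0.05 (9.50% of all genes) and 2 (Ccl6 and Ccl12) called by DESeq2. Ccl3, a Ccr1 ligand, and Ccl4 had log2 fold changes of -2.78 and -2.11 (edgeR adjusted p = 0.000247 and 2.65e-05), Ccl9, which also binds Ccr1, -2.28 (adjusted p = 5.81e-05) and Ccl24 -1.90 (adjusted p = 0.00143). With the macrophage sum as a covariate none of these 4 was called, in a fit that called 16 genes of the whole table. Ccl3 and Ccl9 then stood at -0.05 and -0.01, Ccl4 at -1.85, and Ccl24 turned to 0.98. The sums of MPP mutants and controls do not overlap, so that fit can hardly separate the sum from the genotype. In the fit of 12 libraries Ccl3 (adjusted p = 0.0981) and Ccl24 (adjusted p = 0.236) were not called. The 1 higher ligand was Ccl2, which binds Ccr2. It was named after its values were seen, with 5.15, 3.36 and 9.15 CPM in MPP mutants and 1.70, 0.831 and 1.16 CPM in MPP controls (2.22, adjusted p = 0.00155). LT-HSC mutant 2 held 28.7 CPM of Ccl2, against 0.264 to 1.40 CPM in the other LT-HSC libraries. Cxcl12, the Cxcr4 ligand, was at 0 to 0.824 CPM in LT-HSC mutants and 2.06 to 3.77 CPM in LT-HSC controls. It was not called (log2 fold change -2.52, SE 0.865, edgeR adjusted p = 0.411), and 9.59% of all tested genes had LT-HSC mutants wholly below controls. Between control cell types, 5 of 14 tested ligands were higher and 3 lower in LT-HSC, beside 20.5% and 18.0% of all genes, led by Ccl9 (-2.89), Pf4 (3.73), Ccl6 (-1.60) and Cxcl12 (4.26). Ccl6 was not called in the edgeR fit of 12 libraries (adjusted p = 0.0678). Cxcl12 stood at 0.309, 0 and 0.0827 CPM in MPP controls, where 3 counts make 0.231 to 0.249 CPM, so its fold change rests on counts near 0. With Cre-positive controls alone the 4 values were -2.53, 4.04, -1.05 and 4.91.

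Of 36 genes for G proteins, kinases, Rac activators, arrestins and RGS proteins, 35 were tested in each comparison. In MPP mutants 14 were lower and 2 higher, beside 18.5% and 16.5% of all genes, with a median log2 fold change of -0.26, and in LT-HSC none was called by edgeR or DESeq2, with 2 at an unadjusted p under 0.05, beside 9.50% of all genes. Among those with the smallest p in MPP were Rgs2, which speeds G protein shut-off (-1.29, adjusted p = 1.55e-05), the Src-family kinase gene Lyn (-0.82, adjusted p = 0.000128), and Arrb1, an arrestin that uncouples receptors (1.05, adjusted p = 6.84e-05). In the control comparison 17 were lower and 4 higher in LT-HSC, beside 18.0% and 20.5% of all genes, led by Dock8 (-1.09), Plcb2 (1.10), Rgs19 (-0.63) and Rgs1 (-2.78). In the interaction edgeR called no ligand or signalling gene. At an unadjusted p under 0.05 there were 3 of 15 ligands and 11 of 35 signalling genes, beside 12.4% of all genes, and DESeq2 called Ccl4, Arrb1 and Pik3r5.

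Markers of other cell types also moved in MPP, some lists mostly down like the receptors and others mostly up. The counts are to be read beside the 18.5% of all genes called lower and 16.5% called higher in MPP. In MPP, 12 of 13 tested macrophage markers were lower, and the macrophage sum was 208, 95.4 and 192 CPM in mutants, against 986, 843 and 699 CPM in controls. All 11 tested lymphoid markers were lower, with sums of 273 to 371 CPM in mutants and 654 to 691 CPM in controls. Among dendritic cell markers 5 of 7 were lower and 1 higher, with sums of 84.2 to 101.1 CPM in mutants and 174 to 196 CPM in controls. Erythroid markers were higher in 12 of 13, granulocyte and monocyte markers were higher in 8 and lower in 3 of 17, and hepatoblast markers were lower in 5 of 12, with sums of 108 to 137 CPM in mutants and 289 to 577 CPM in controls. The part of the lymphoid, dendritic, erythroid, granulocyte and hepatoblast markers in the receptor result was not tested. The T cell genes Cd3e and Cd8a were at 0 or under 0.1 CPM in every library. Cd4 was not, with 4.53 to 9.44 CPM in LT-HSC, 4.83 to 6.81 CPM in MPP mutants and 14.5 to 19.7 CPM in MPP controls. With the macrophage sum as a covariate, edgeR called none of the 7 receptors in MPP and 16 genes of the whole table. The sums of mutants and controls do not overlap, so the sum and the genotype can hardly be separated in that fit. The log2 fold change of Ccr2 was then -5.24 (SE 0.876, edgeR adjusted p = 0.0658), of Ccr9 -3.59 (SE 0.736, adjusted p = 0.146) and of Cx3cr1 -0.83 (SE 0.646, adjusted p = 1).

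The macrophage sum was 732, 965 and 1106 CPM in LT-HSC controls and 699 to 986 CPM in MPP controls, while Ccr2 was at most 6.96 CPM in LT-HSC controls and at least 94.1 CPM in MPP controls. Like sums hid unlike markers, since 7 of 13 tested were higher and 2 lower in LT-HSC controls. Lymphoid markers were lower in 10 of 11, dendritic cell markers lower in 6 of 7, and hepatoblast markers higher in 12 and lower in 1 of 13. Over all genes, 20.5% were called higher and 18.0% lower in that comparison. Cx3cr1 was 3.24 to 11.5 CPM in LT-HSC controls and 26.4 to 38.2 CPM in MPP controls. In LT-HSC mutants 1, 2 and 3, with sums of 55.6, 910 and 146 CPM, Cx3cr1 stood at 0.741, 14.4 and 0.885 CPM, Ccr2 at 0.424, 0 and 0.295 CPM and Ccr9 at 0.0824, 0.192 and 0.516 CPM. Among these 3 mutants Cx3cr1 was highest in mutant 2, which had the highest sum, and Ccr2 and Ccr9 were low in all 3. LT-HSC control 2, with a sum of 965 CPM, held 3.24 CPM of Cx3cr1. The source of these transcripts was not tested. Il7r and Rag1, lymphoid progenitor genes, were at most 0.442 CPM in LT-HSC, 0.454 to 3.31 CPM in MPP mutants and 10.1 to 36.5 CPM in MPP controls.

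**Figure D5:**
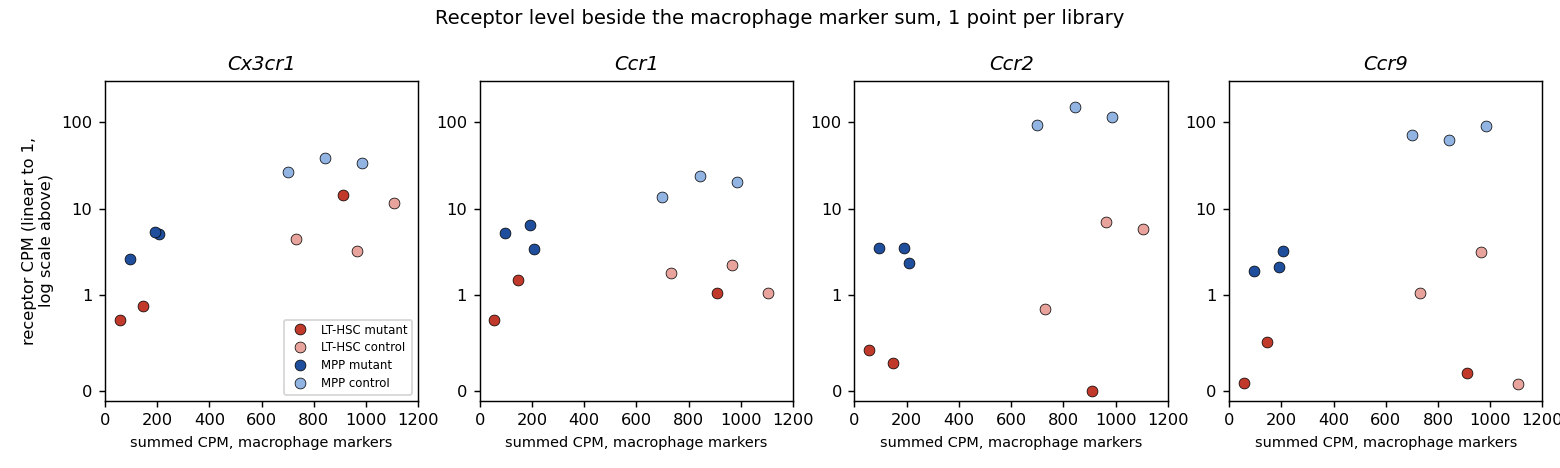
Level of Cx3cr1, Ccr1, Ccr2 and Ccr9 (CPM, linear to 1 and log scale above) against the summed CPM of 15 macrophage markers, 1 point per library. LT-HSC and MPP controls have sums between 699 and 1106 CPM, and at those sums Ccr2 lies at 0.858 to 6.96 CPM in LT-HSC controls and at 94.1 to 152 CPM in MPP controls. Single markers differed between these controls, with 7 of 13 tested higher and 2 lower in LT-HSC, beside 20.5% and 18.0% of all genes.

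Likeness of profile was measured as the mean absolute difference in log2 CPM over 12 libraries, after centring each gene. The nearest genes outside the receptor list were Il7r (1.02), Mcpt8 (1.07) and Pid1 (1.12) for Ccr2, and Sema3d (0.725), Il7r (0.787) and Rag1 (0.899) for Ccr9. For Cx3cr1 they were Nlrp3 (0.329), Csf1r (0.401) and Icos (0.441), for Ccr1 Amica1 (0.350), Arhgef37 (0.356) and Gpr97 (0.366), and for Ccr7 Sh2d2a (0.364), Cox6a2 (0.418) and St8sia1 (0.510). For Cxcr4 they were Tle3 (0.140), Pan3 (0.149) and Gm5111 (0.178), and for Cxcr2 Ncf4 (0.292), Gpr65 (0.297) and Galnt3 (0.306). Within the 7, Ccr2 and Ccr9 were 0.951 apart and each was the other's nearest member. These distances describe profiles and share the same libraries and depth.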

How the data were processed

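RNA was sequenced from 12 libraries of sorted fetal liver cells with an unstranded low-input kit, from 10 ng of RNA per the labels' protocols. STAR, RSEM and the mm10 genome are named in the submitters' processing notes, with no versions. The deposited tables hold RSEM expected counts per gene, of which 7.13% to 7.76% per library were fractional, and TPM, per the file headers. Expected counts were rounded and tested with edgeR 4.0.16 in R 4.3.3 (quasi-likelihood test, TMM scaling, filterByExpr with minimum count 10 and minimum total 15), with Benjamini-Hochberg adjustment over all genes tested and a threshold of 0.05. Genotype was tested in each cell type, cell type in the controls, and the interaction over 12 libraries. The procedure was tested on simulated data. DESeq2 1.42.0 was an alternative. TPM served only for levels between genes.

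Results for some genes the rule below would name are not reported here. The members, gene lists and tests were chosen with earlier results of these data known. Besides the 7 members, the text names the other tested receptors, up to 4 called genes with the smallest p per list and comparison, up to 4 neighbours, and the 3 most alike genes per member; marker genes and other exceptions were chosen after their values were seen. Promoters are RefSeq's, GRCm38.p6.

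Replicate numbers come from the titles. Same-numbered LT-HSC mutants and controls deviated together weakly (r across genes 0.108, 0.148 and 0.175), whereas MPP ones did not (-0.02, -0.21 and -0.18). Differently numbered libraries were not compared, so a pairing was not established. The main tests did not pair libraries, and a fit with the replicate number as a block is given below.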

Additional observations from a re-analysis of the deposited data

How the results depend on the processing

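With the replicate number as a block, 0 receptors were called in LT-HSC, 7 in MPP, 7 between the control cell types and 0 in the interaction. The block thus changed no receptor call. In LT-HSC 1 receptor, Ccr2, was called with DESeq2, with the fit of 12 libraries and with Cre-positive controls alone. The fit of 12 libraries lost Cxcr2 in MPP, leaving 6, and Cx3cr1 between control cell types (adjusted p = 0.0524), leaving 6. In MPP 0 receptors were called with the macrophage sum as covariate and 1 with Cre-positive controls alone, and between control cell types 4 were called with Cre-positive controls alone. Leaving out 1 library gave 0 receptors in LT-HSC, 6 to 7 in MPP, 7 between cell types and 0 in the interaction.

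Some estimates changed sign. Among those not called, in LT-HSC, Cxcr2 ranged from -0.27 to 1.11 when 1 library was left out and was -0.27 with Cre-positive controls, and Cx3cr1 ranged from -2.95 to 0.53 and was 1.14 with the macrophage sum as covariate. The Cx3cr1 interaction ranged from -0.051 (without LT-HSC mutant 2) to 3.34. The called Ccl24 in MPP was 0.98, and no longer called, with the covariate. The causes were not tested.

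Over all genes, LT-HSC calls numbered 54, against 280 with DESeq2, 250 with the fit of 12 libraries, 23 with the covariate and 13 to 102 without 1 library (102 without mutant 2). MPP calls numbered 4337, against 2792 with the fit of 12 libraries, 16 with the covariate, 125 with Cre-positive controls and 2774 to 4756 without 1 library (2774 without mutant 2, 2867 without mutant 3). Cell type calls numbered 4942, against 327 with Cre-positive controls. Interaction calls numbered 50, against 341 with DESeq2, 87 unfiltered, 79 with the covariate, 0 with Cre-positive controls and 1 (without MPP mutant 2) to 885 (without LT-HSC mutant 3). Low counts kept Ccr7 and Ccr9 from being tested in LT-HSC.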
